A study of Sus scrofa with 6 samples.

Results

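The genes described here are ANPEP, ENPEP, DPP4, ACE, MME, MEP1A and GGT1, whose enzymes face the outside of epithelial cells, and GDPD2 and TINAG, which were grouped with them. They were measured by RNA sequencing in cultured immature Sertoli cells, which nurse germ cells in the testis tubules, from pig testes at 80 to 90 days of gestation. Of these 9 genes, 6 had a row among the 17670 genes in the table of read counts, and 5 of them passed the filter on low counts, as did 12701 genes in all. ANPEP, ENPEP, DPP4, GDPD2 and TINAG passed it, ACE did not, and MME, MEP1A and GGT1 had no row under their symbol and were not analysed here. The group had been chosen by gene symbol with the differences between the same 6 libraries already known, so its values are given as a description, with no test.

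There were 3 libraries of cells treated with 250 µM AA2P, the phosphate of L-ascorbic acid, which keeps vitamin C stable in medium. The other 3 libraries came from control cells. All cells grew in minimum essential medium with fetal bovine serum and antibiotics, treatment began after 6 h of culture, and the sources used here do not give its length. The labels do not say whether the 3 libraries of each kind stem from different cultures or pigs, so p-values below reflect the spread between these samples alone, and that spread may be technical.

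A brush border is a carpet of microvilli on the free side of an absorptive cell, as in the small intestine and the kidney proximal tubule. Its membrane carries ectopeptidases, enzymes anchored in the membrane with the catalytic domain outside, which trim peptides to amino acids and short peptides that transporters then take up. Aminopeptidases cut from the amino end, dipeptidyl peptidases remove pairs of residues, and several of the same enzymes shorten angiotensins, kinins and other peptide hormones. GGT1 starts the breakdown of glutathione outside the cell. GDPD2 belongs to the glycerophosphodiester phosphodiesterase family, and TINAG, a basement membrane glycoprotein related to cathepsin B, is not known as a brush border enzyme.

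The libraries held 18747307 to 23521291 counts. Levels are CPM, read counts scaled to a common library size, after TMM scaling, edgeR's correction of library sizes for differences in composition, and 3 counts, the upper limit behind a count of 0, equal 0.123 to 0.165 CPM, a limit for counting error only. AA2P library 3 lay nearest the controls, with a mean correlation of log2 CPM with the control libraries, across genes, of 0.970, against 0.959 for AA2P library 1 and 0.961 for AA2P library 2. In edgeR's quasi-likelihood F test, adjusted by Benjamini-Hochberg over the 12701 genes tested, 26.0% of genes were called higher and 26.1% lower with AA2P at an adjusted p of 0.05. With library totals in place of TMM scaling, 5727 genes were called higher and 1822 lower, against 3302 and 3313, which put the median log2 fold change over all tested genes at 0.17.

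With AA2P the 6 measured genes did not move alike. GDPD2 and ANPEP were many times higher, TINAG was 2.09-fold higher, DPP4 was higher by less, and the groups overlapped in ENPEP and ACE. Of the 5 genes that passed the filter, 4 were called higher and none lower, beside 26.0% of all tested genes called higher, and in the same 4 every AA2P library lay above every control library, as in 29.8% of all tested genes. Because the genes were picked with these differences in view, nothing is read from these counts. Their log2 fold changes ran from 0.17 to 4.74 with a median of 1.07, and the median of all tested genes was -0.00049. In bulk RNA, more cells that express a gene and more RNA of it per cell cannot be told apart.

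ANPEP (ENSSSCG00000001849) encodes aminopeptidase N, also known as CD13, a zinc enzyme that removes neutral amino acids from the amino end of peptides and, in pigs, serves as the receptor of transmissible gastroenteritis virus. It had 5892, 5655 and 5218 counts in the AA2P libraries, against 487, 257 and 377 counts in the control libraries. On the CPM scale these were 295.0, 280.2 and 214.4 with AA2P and 21.9, 14.2 and 18.3 in controls. The lowest AA2P library, library 3, was still far above the highest control library. The means were 263 ± 42.9 CPM with AA2P and 18.1 ± 3.90 CPM in controls (SD, n = 3 each), a log2 fold change of 3.85 with a standard error of 0.13. Of the tested genes, 28 had a larger log2 fold change.

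ENPEP (ENSSSCG00000009132) encodes aminopeptidase A, the related zinc enzyme that removes acidic residues and turns angiotensin II into angiotensin III. It had 2.60, 1.73 and 1.44 CPM with AA2P and 1.71, 1.38 and 1.94 CPM in controls, from 35 to 52 counts a library with AA2P and 25 to 40 in controls. AA2P library 1 was highest and AA2P library 3 lay below 2 of the 3 control libraries, so the groups overlapped. Its log2 fold change was 0.17 with a standard error of 0.25, and without AA2P library 1 it was -0.10. Both enzymes belong to the M1 family of aminopeptidases, and their log2 fold changes were the second largest and the smallest of the 5.

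DPP4 (ENSSSCG00000015894) encodes dipeptidyl peptidase 4, or CD26, a serine peptidase that removes dipeptides ending in proline or alanine and inactivates incretin hormones. Its levels were 22.5, 19.2 and 16.6 CPM with AA2P and 14.1, 12.2 and 13.8 CPM in controls. The groups did not overlap, but AA2P library 3 stood close to the highest control library. The means were 19.4 ± 2.95 CPM with AA2P and 13.4 ± 0.996 CPM in controls (SD, n = 3 each), a log2 fold change of 0.53 with a standard error of 0.11. With each library left out in turn the log2 fold change lay between 0.41, without AA2P library 1, and 0.64, without AA2P library 3.

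ACE (ENSSSCG00000017296) encodes angiotensin-converting enzyme, a zinc dipeptidyl carboxypeptidase that makes angiotensin II. It was barely detected, with 13, 10 and 7 counts in the AA2P libraries and 1, 4 and 6 counts in the control libraries. AA2P library 3, at 0.288 CPM, lay just under control library 3, at 0.291 CPM, so the groups overlapped. Control library 1 lay below the level of 3 counts. The filter on low counts left the gene out of the test.

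GDPD2 (ENSSSCG00000012376), whose protein spans the membrane several times and carries a glycerophosphodiester phosphodiesterase domain, showed the largest difference of the group. It had 804, 824 and 618 counts in the AA2P libraries, against 30, 21 and 29 counts in the control libraries. These corresponded to 40.3, 40.8 and 25.4 CPM with AA2P and 1.35, 1.16 and 1.41 CPM in controls. AA2P library 3 lay well below the other two AA2P libraries and far above the controls. The means were 35.5 ± 8.75 CPM with AA2P and 1.31 ± 0.132 CPM in controls (SD, n = 3 each), a log2 fold change of 4.74 with a standard error of 0.21. Only 9 tested genes had a larger one.

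TINAG (ENSSSCG00000001484) encodes tubulointerstitial nephritis antigen, which was first described in the basement membrane of kidney tubules. It had 60.2, 65.4 and 56.0 CPM with AA2P and 28.8, 28.4 and 29.4 CPM in controls. The 3 control libraries lay within about 1 CPM of each other and every AA2P library stood clear of them. The means were 60.6 ± 4.69 CPM with AA2P and 28.9 ± 0.496 CPM in controls (SD, n = 3 each), a log2 fold change of 1.07 with a standard error of 0.067.

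**Figure D1:**
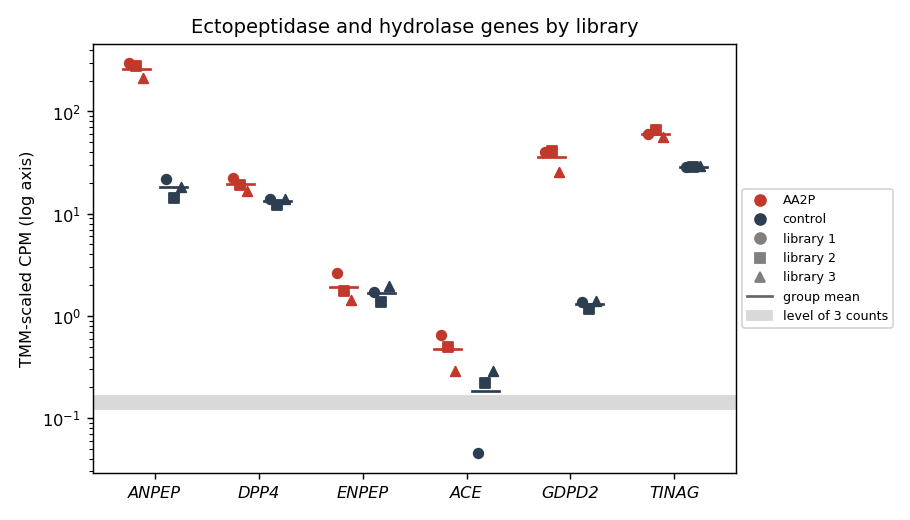
TMM-scaled CPM (log axis) of the 6 genes with a row, AA2P libraries in red and control libraries in dark blue, with marker shapes for library number, short lines for group means and a grey band for the level of 3 counts. ANPEP at 214.4 to 295.0 CPM and GDPD2 at 25.4 to 40.8 CPM with AA2P stand far above their controls, while ENPEP and ACE overlap.

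In all 6 genes with a row, AA2P library 3 had the lowest of the 3 AA2P values. The same was true of 56.1% of all genes called higher with AA2P. Library 3 had 0.745 times the mean of AA2P libraries 1 and 2 for ANPEP and 0.626 times for GDPD2. The ratio was 0.798 for DPP4, 0.663 for ENPEP, 0.502 for ACE and 0.892 for TINAG. Without AA2P library 3 the log2 fold changes of ANPEP, GDPD2 and TINAG were 3.98, 4.95 and 1.12, against 3.85, 4.74 and 1.07 with it. ACE then passed the filter, with a log2 fold change of 1.63. It also passed without control library 1, 2 or 3, at 0.84, 1.48 and 1.86. ACE was picked with these differences in view and had few counts, so nothing is read from whether it was called.

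**Figure D2:**
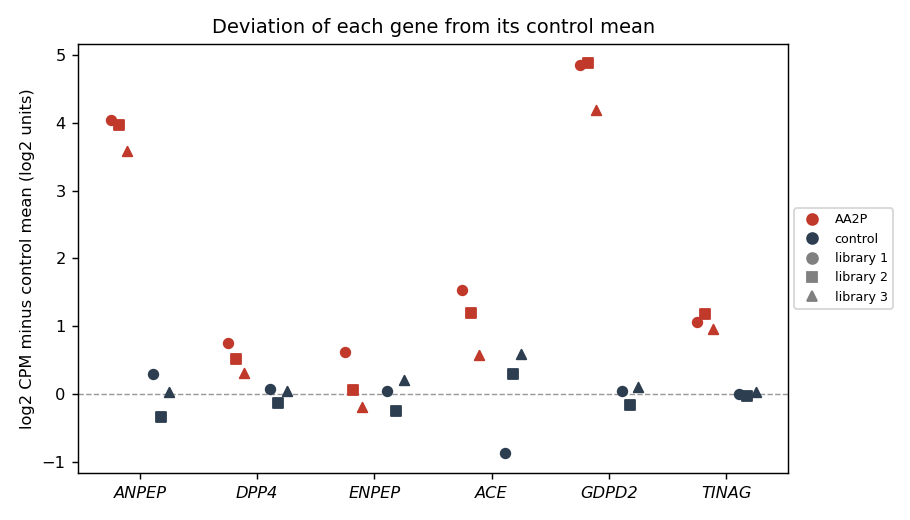
Log2 CPM (prior count of 2) of each gene minus its own mean over the 3 control libraries, in log2 units, AA2P in red and control in dark blue, with marker shapes for library number. The triangle of AA2P library 3 is the lowest AA2P point of every gene, at 3.58 for ANPEP, 4.19 for GDPD2 and -0.20 for ENPEP.

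The genes were also compared by their profiles over the 6 libraries. These profiles were not scaled to equal size, so distances between them mostly restate the log2 fold changes given above. With each gene's log2 CPM (prior count of 2) set relative to its control mean, ANPEP and GDPD2 lay at a Euclidean distance of 1.40 from each other, and ENPEP and DPP4 at 0.73. ANPEP lay 4.87 from TINAG and 6.43 from ENPEP, its family relative. Among the other genes with a symbol, those nearest to ANPEP by this distance were SLC34A3, MAP2K6, FRMD1, PROC and KCNJ16, at 0.456 to 0.851. SLC34A3, a kidney phosphate transporter, had 1.51 ± 0.276 CPM with AA2P and 0.0312 ± 0.0271 CPM in controls, which is under the level of 3 counts, so no fold change is given for it. The same holds for MAP2K6, a kinase of the p38 pathway, at 1.64 ± 0.387 CPM with AA2P and 0.0162 ± 0.0280 CPM in controls, and for FRMD1, at 2.70 ± 0.990 and 0.0980 ± 0.0446 CPM in the same order (SD, n = 3 each). For SLC34A3, MAP2K6 and FRMD1 the prior count of 2 lifts the very low control values, so their closeness to ANPEP depends on that prior and nothing is read from it. PROC, the gene of protein C, and the potassium channel gene KCNJ16 had log2 fold changes of 3.58 and 3.63.

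The genes nearest to the mean profile of the 5 tested members were SLC16A12, HNF4A, ITGA1, DLGAP1 and TIMP4, at distances of 0.188 to 0.217. SLC16A12 encodes a monocarboxylate transporter family member, HNF4A a nuclear receptor of liver, gut and kidney epithelium, ITGA1 a collagen receptor chain, DLGAP1 a scaffold protein and TIMP4 a metalloprotease inhibitor. Their log2 fold changes were 1.95 to 2.03. HNF4A, for example, had 155 ± 21.1 CPM with AA2P and 38.6 ± 3.92 CPM in controls (SD, n = 3 each). This mean averages genes that differ by several log2 units, and no single member has its shape.

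The other peptidases of the brush border were listed by textbook role, with earlier results of these data known. Of the 8 listed, 4 had a row and 2 were tested, of which 1 rose and 1 fell with AA2P. With no filter on low counts, and without AA2P library 1, AA2P library 2 or any 1 control library, 2 rose and 1 fell. MEP1B is the beta subunit of meprin and the partner of MEP1A, which had no row under its symbol. MEP1B rose 9.01-fold to 2.59 ± 0.645 CPM with AA2P, against 0.278 ± 0.0364 CPM in controls (SD, n = 3 each), on 47 to 65 counts a library with AA2P and 5 to 7 in controls. The carboxypeptidase M gene (CPM), whose enzyme is tied to the membrane by a lipid anchor, fell 3.39-fold to 2.38 ± 0.388 on the scale of scaled counts with AA2P, against 8.07 ± 0.725 in controls. Adjusted p-values by edgeR with Benjamini-Hochberg adjustment were 4.5e-07 for MEP1B and 5.9e-08 for the carboxypeptidase M gene. NAALADL1, an intestinal acidic dipeptidase relative, did not pass the filter and had 9, 12 and 16 counts in AA2P libraries, against 1, 0 and 1 in control libraries. CPO, a carboxypeptidase of the gut, had 1 count in a single control library.

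Hydrolases of the brush border that act on sugars, phosphates and lipids went both ways. Of 14 listed genes 8 were tested, 2 rose, 3 fell and 3 did not pass the threshold, with a median log2 fold change of -0.04, or 0.13 with library totals. ALPL, a phosphatase held by a lipid anchor, rose 4.10-fold to 0.873 ± 0.348 CPM with AA2P, against 0.216 ± 0.0781 CPM in controls (SD, n = 3 each), with an adjusted p of 0.00106 by edgeR with Benjamini-Hochberg adjustment. The other gene that rose, the disaccharidase MGAM, did so 1.12-fold with an adjusted p of 0.0356 by edgeR. ALPL was the only gene of the list called higher without AA2P library 2 or 3 and without control library 1 or 3. The same held with the replicate block and with the DESeq2 Wald test. A filter of 1 CPM in 3 libraries also left 1 gene called higher, but it removed ALPL. Sucrase-isomaltase (SI), the enterocyte disaccharidase, fell 1.32-fold to 73.3 ± 3.03 CPM with AA2P, against 97.0 ± 4.64 CPM in controls. ENPP1, which makes pyrophosphate, fell 1.92-fold, and the phospholipase gene PLB1 fell 3.52-fold to 1.43 ± 0.0682 CPM with AA2P, against 5.04 ± 0.0344 CPM in controls. Adjusted p-values by the same test were 1.4e-05, 1.7e-07 and 1.3e-07 for these 3 genes.

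Family relatives of ANPEP and ENPEP mostly fell. Of 7 tested M1 aminopeptidases outside the group, 5 fell, 1 rose and 1 did not pass the threshold, and with library totals 3 fell and 1 rose. TRHDE, the ectoenzyme that cuts thyrotropin-releasing hormone, rose 2.49-fold to 2.12 ± 0.521 CPM with AA2P, against 0.843 ± 0.266 CPM in controls (SD, n = 3 each), with an adjusted p of 0.00103 by edgeR with Benjamini-Hochberg adjustment. ERAP1 and ERAP2, which trim peptides in the endoplasmic reticulum for antigen presentation, fell 1.30-fold and 1.23-fold. RNPEP, aminopeptidase B, fell 1.23-fold. LVRN, a relative best known in placenta, had 3, 1 and 3 counts with AA2P and none in controls and did not pass the filter.

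Relatives of the other members moved in either direction. In S9, the peptidase family of DPP4, none of 4 tested genes rose and 2 fell, PREP 1.26-fold and DPP8 1.12-fold, both cytosolic enzymes. But with library totals 2 rose and 1 fell, and the log2 fold change of DPP8 was 0.0035. Without control library 3 DPP8 had an adjusted p of 0.0657 by edgeR. FAP, the close membrane relative of DPP4 found on activated fibroblasts, was not above 1 count in any library. In the neprilysin family of MME, ECE1, which makes endothelin, fell 1.54-fold to 37.8 ± 2.01 CPM with AA2P, against 58.0 ± 1.21 CPM in controls (SD, n = 3 each). PHEX, a bone and tooth peptidase, rose 2.21-fold on 11 to 16 counts a library with AA2P and 4 to 7 in controls, with an adjusted p of 0.0270 by edgeR with Benjamini-Hochberg adjustment. That call was lost without AA2P library 3, without control library 1 or 3, with no filter and with DESeq2, with adjusted p-values of 0.0600 to 0.124.

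Of the 3 tested astacins, 1 rose and 2 fell. These are the metallopeptidases to which meprins belong, and the rise is that of MEP1B. BMP1, the procollagen C-proteinase, fell 1.96-fold to 110 ± 12.1 CPM with AA2P, against 215 ± 3.18 CPM in controls (SD, n = 3 each), and its relative TLL2 fell 5.00-fold. Of the 3 tested relatives of GGT1, 2 rose. GGT6 rose 4.70-fold to 1.17 ± 0.0668 CPM with AA2P, against 0.243 ± 0.0886 CPM in controls, with an adjusted p of 5.2e-05 by edgeR with Benjamini-Hochberg adjustment. GGT5, which acts on leukotriene C4, rose 1.30-fold to 12.1 ± 0.916 CPM with AA2P, against 9.30 ± 1.16 CPM in controls, but without control library 1 its adjusted p by edgeR was 0.0621. GGT7 had 10 to 14 counts a library with AA2P and 6 to 9 in controls and was not called.

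The tested family relatives of GDPD2 did not rise under TMM scaling. GDPD5 fell 2.60-fold to 14.1 ± 0.944 CPM with AA2P, against 36.7 ± 3.64 CPM in controls (SD, n = 3 each), with an adjusted p of 1.5e-09 by edgeR with Benjamini-Hochberg adjustment. GDE1 was at 36.2 ± 1.91 CPM with AA2P and 35.7 ± 1.17 CPM in controls and with library totals it was called higher. GDPD3 had 2 to 11 counts with AA2P and 4 to 8 in controls. TINAGL1, the paralog of TINAG, fell 1.37-fold to 155 ± 19.8 CPM with AA2P, against 213 ± 13.2 CPM in controls, and cathepsin B (CTSB) fell 1.26-fold. The difference in response between a member and its relatives was not tested.

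**Figure D3:**
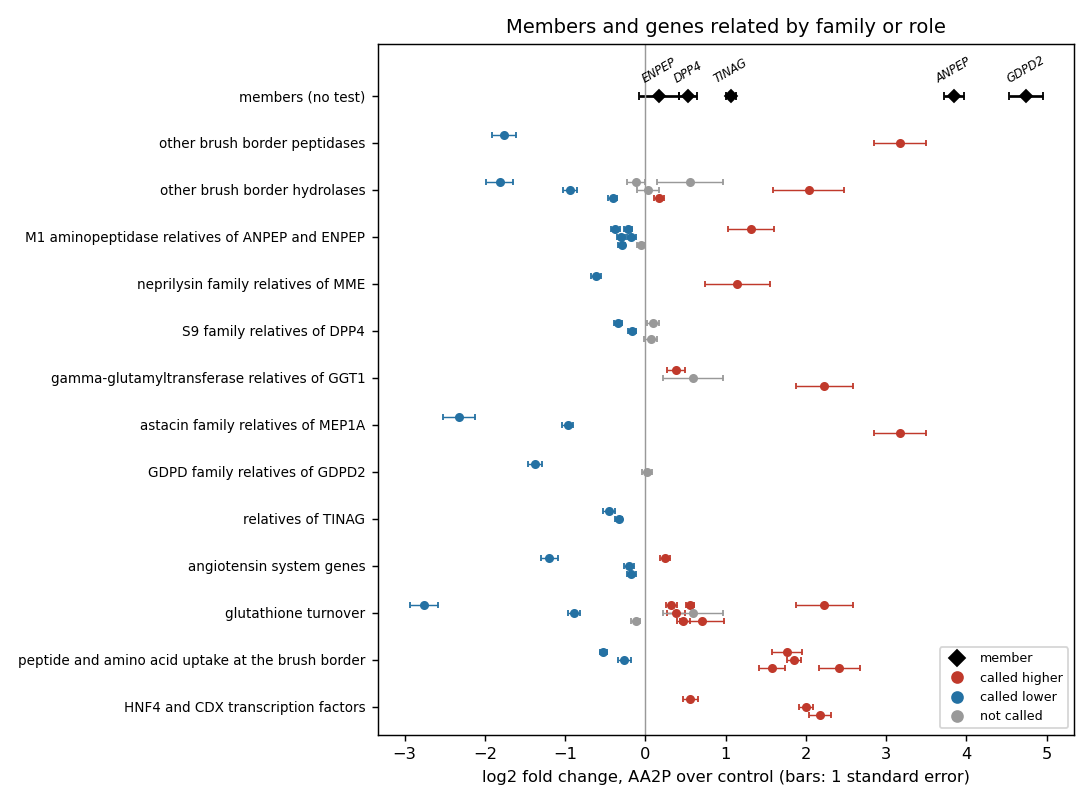
Log2 fold change of AA2P over control, with bars of 1 standard error, for the 5 tested members (black diamonds, top row) and for tested genes of each list, red where called higher, blue where called lower and grey where not called. The transcription factor list at the bottom lies wholly to the right of 0, while most family lists have genes on both sides.

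Angiotensin peptides are among the substrates of these enzymes. In the list of angiotensin system genes 1 of 4 tested genes rose and 3 fell, or 1 and 1 with library totals. Angiotensinogen (AGT), the precursor of the peptides that ACE, ENPEP and ANPEP shorten in turn, fell 2.30-fold to 16.3 ± 3.28 CPM with AA2P, against 37.5 ± 2.06 CPM in controls (SD, n = 3 each). The lysosomal carboxypeptidase PRCP rose 1.18-fold, and the proton pump accessory subunit ATP6AP2 fell 1.15-fold but missed the threshold with library totals, at an adjusted p of 0.621. The angiotensin receptor AGTR1 was at no more than 1 count in any library.

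Of 10 tested genes of glutathione turnover 6 rose and 2 fell. The number that rose was 4 without control library 1, and 5 without any other single library, with no filter on low counts, with the DESeq2 Wald test and with the replicate block. GCLC, the catalytic subunit of the first step of glutathione synthesis, rose 1.47-fold to 83.0 ± 1.68 CPM with AA2P, against 56.5 ± 0.783 CPM in controls (SD, n = 3 each). CHAC1, which breaks glutathione down inside the cell, fell 6.77-fold to 7.61 ± 3.63 CPM with AA2P, against 52.7 ± 3.71 CPM in controls, and OPLAH, which recycles the product oxoproline, fell 1.85-fold. Adjusted p-values by edgeR with Benjamini-Hochberg adjustment were 1.8e-07, 2.2e-09 and 5.3e-08 in this order.

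Of the transporters that take up what brush border peptidases release, most tested ones were higher with AA2P. Of 8 listed genes 6 were tested. Among these 4 rose and 2 fell, or 4 and 1 with library totals and without control library 1, with a median log2 fold change of 1.67. SLC6A19 had no row under its symbol. SLC15A1 did not pass the filter, with 2, 3 and 5 counts in AA2P libraries and 0, 2 and 2 in control libraries. SLC3A1 and SLC7A9, the 2 chains of the cystine and dibasic amino acid exchanger, rose 3.61-fold and 2.98-fold, and SLC3A1 reached 138 ± 19.3 CPM with AA2P, against 38.2 ± 2.10 CPM in controls (SD, n = 3 each). CLTRN, or collectrin, which brings neutral amino acid transporters to the membrane, rose 3.41-fold to 18.9 ± 5.10 CPM with AA2P, against 5.44 ± 1.09 CPM in controls. The peptide transporter of the kidney, SLC15A2, lay at 4.77 ± 0.945 CPM with AA2P and 0.864 ± 0.366 CPM in controls and also rose. The glutamate transporter SLC1A1 fell 1.44-fold, and SLC15A4, a peptide and histidine transporter of lysosomes, fell 1.20-fold to 16.1 ± 0.306 CPM with AA2P, against 19.3 ± 0.765 CPM in controls. Adjusted p-values by edgeR with Benjamini-Hochberg adjustment ran from 4.8e-11 for SLC3A1 to 0.0109 for SLC15A4.

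Each tested transcription factor of the list rose. CDX2 is known to bind promoters of intestinal hydrolase genes, and the 3 tested genes HNF4A, HNF4G and CDX2 were called higher under TMM scaling, DESeq2 size factors and library totals. CDX2 rose 4.50-fold to 9.34 ± 0.580 CPM with AA2P, against 2.07 ± 0.0279 CPM in controls (SD, n = 3 each). HNF4A rose 4.01-fold and HNF4G 1.47-fold. Their adjusted p-values by edgeR with Benjamini-Hochberg adjustment lay between 4.2e-11 for HNF4A and 0.000102 for HNF4G. Over all these lists together, which name 83 genes, 51 were tested, 19 rose and 23 fell, which is 37.3% and 45.1% beside 26.0% and 26.1% of all tested genes. Their median log2 fold change was -0.05.

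The label of the cells was set against marker genes. Of 13 Sertoli cell markers 9 had a row and 7 were tested, of which 5 fell and 1 rose with AA2P, and the 9 summed to 1403 to 1973 CPM with AA2P and 4530 to 4861 CPM in controls, mostly from clusterin (CLU). AMH, the hormone of immature Sertoli cells, was at 34.5 ± 2.35 CPM with AA2P and 36.4 ± 1.52 CPM in controls, and SOX9 was at 2.22 ± 0.459 CPM and 11.6 ± 0.648 CPM in the same order (SD, n = 3 each). INHA was at no more than 1 count and DHH at no more than 3 counts in any library, so these defining markers were at or near 0. GATA4, CLDN11, FSHR and DMRT1 had no row under their symbol and were not analysed here.

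Markers of the kidney proximal tubule, where the members are also known, were mostly higher with AA2P. Of the 9 markers 8 had a row and 7 were tested, of which 6 rose and 1 fell, or 5 and 1 with the DESeq2 Wald test and without any 1 AA2P library or control library 1. Their summed level was 822 to 1128 CPM with AA2P and 223 to 261 CPM in controls. Megalin (LRP2) was at 638 ± 144 CPM with AA2P and 80.1 ± 14.0 CPM in controls, SLC34A1 at 182 ± 23.0 CPM and 32.1 ± 4.47 CPM in the same order (SD, n = 3 each), and SLC22A6 at no more than 1 count in any library. MIOX, the inositol oxygenase of the tubule, fell 4.09-fold to 2.40 ± 0.312 CPM with AA2P, against 9.88 ± 0.245 CPM in controls, with an adjusted p of 3.0e-09 by edgeR with Benjamini-Hochberg adjustment. In the same order of groups the enterocyte list summed to 153 to 167 CPM and 149 to 157 CPM, and the list for rete testis, efferent duct and mesonephric epithelium to 613 to 744 CPM and 614 to 665 CPM. Of 4 tested enterocyte markers 3 rose, VIL1 and CDX2 by 1.45-fold and 4.50-fold among them, and 1, SI, fell, while 2 rose under 7 of the 12 alternatives. Of 5 tested markers of the other list 3 rose and 1 fell, with CDH16 at 75.4 ± 5.39 CPM and ESR1 at 1.94 ± 0.293 CPM with AA2P, against 33.0 ± 3.82 CPM and 0.378 ± 0.117 CPM in controls. PAX2, which also rose, by 1.36-fold, is on the proximal tubule list too. CDX2 and SI of the enterocyte list were likewise counted in lists above. EMX2 fell 1.63-fold to 23.25 ± 3.24 CPM with AA2P, against 38.04 ± 2.38 CPM in controls. KRT7, which made up most of the sum of that list, was not called. The part of other cell types in the values of ANPEP, GDPD2, TINAG and DPP4 was not tested.

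Measured markers of other cell types that can carry these peptidases were at low levels, but several listed markers had no row. Rows were present for 5 of 6 leukocyte, 3 of 5 stromal, 2 of 5 endothelial and 4 of 4 smooth muscle markers. They were present for 3 of 6 Leydig and 2 of 5 germ cell markers. PTPRC, CDH5, VWF, KDR, DCN and LUM were among those without a row, so low sums do not show that these cells were scarce. Leukocyte markers summed to 24.3 to 27.6 CPM with AA2P and 28.1 to 30.6 CPM in controls, with CSF1R and CD163 at no more than 2 counts in any library. That sum was mostly CD14, which fell 1.39-fold, while AIF1 rose 7.09-fold, with 111, 102 and 119 counts in the AA2P libraries and 10, 12 and 22 in the control libraries, at an adjusted p of 3.6e-08 by edgeR with Benjamini-Hochberg adjustment. Stromal markers summed to 6.31 to 10.7 CPM with AA2P and 20.0 to 22.4 CPM in controls, and endothelial markers to 6.53 to 8.57 CPM with AA2P and 2.30 to 3.25 CPM in controls, where PECAM1 rose 3.10-fold. The stromal sum was mostly COL1A1, which fell 2.52-fold, while PDGFRA and PDGFRB did not pass the filter. Smooth muscle markers summed to 8.23 to 11.3 CPM with AA2P and 37.9 to 42.3 CPM in controls. That sum was mostly DES, which fell 4.64-fold, and ACTA2 and MYH11 did not pass the filter. CNN1 rose 1.96-fold, at an adjusted p of 0.0117 by edgeR with Benjamini-Hochberg adjustment. Its call was lost with the DESeq2 Wald test and without control library 1. Leydig and germ cell markers stayed under 8 CPM in sum in every library.

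**Figure D4:**
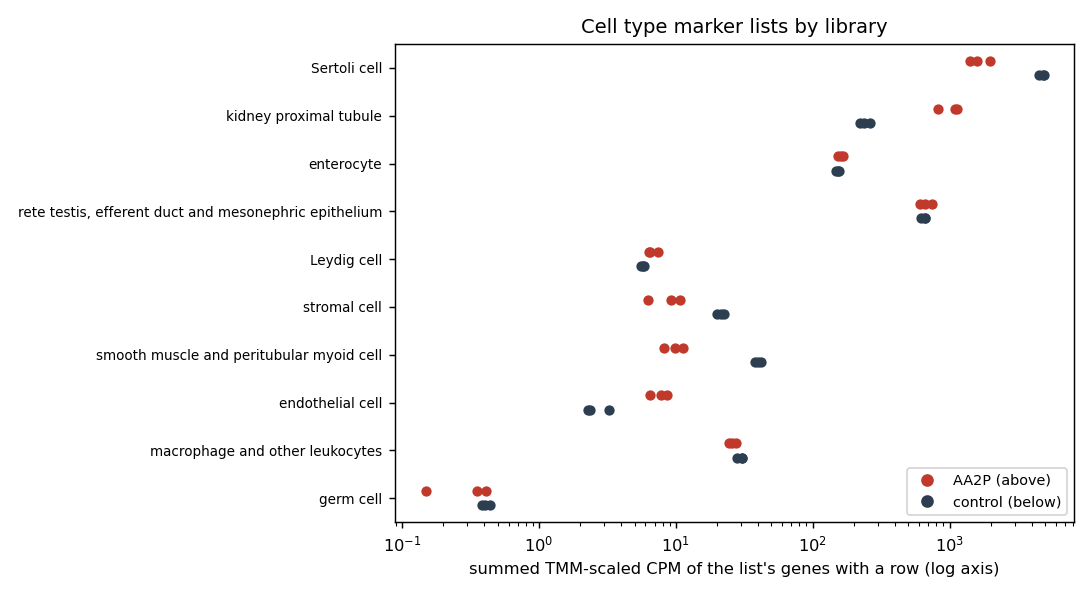
Summed TMM-scaled CPM (log axis) of each cell type marker list in each library, AA2P in red above and control in dark blue below. The proximal tubule list lies at 822 to 1128 CPM with AA2P and at 223 to 261 CPM in controls, and the Sertoli cell list at 1403 to 1973 CPM and 4530 to 4861 CPM in the same order.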

How the data were processed

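Total RNA was extracted with Trizol and read on a HiSeq X-Ten, per the labels' protocols. Tools named were bcl2fastq and the aligner HISAT2 2.0.5, per the submitters' processing notes. How reads were counted, with or without strand, and on which annotation and build is not given in the sources used here, so reads of near-identical, overlapping or antisense genes cannot be told apart and no coordinates are printed. The deposited values are raw counts of reads, whole numbers for each Ensembl gene. Symbols were found for 13141 of 17670 identifiers. A gene said to have no row had none under its symbol, and could lie under an identifier without a symbol.

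All genes were tested at once in R 4.3.3 with edgeR 4.0.16 (quasi-likelihood F test, TMM factors, filterByExpr with the group, group as the only term, Benjamini-Hochberg adjustment over 12701 genes, adjusted p of 0.05), and the procedure was tested on simulated data. That simulation changed few genes, as many up as down, so it cannot tell whether TMM scaling suits these data. Log2 fold changes are AA2P over control. Standard errors are the size of that change divided by the root of F. The members and lists were chosen with earlier results of these data known. All members were named, with up to 4 called genes of each list by smallest p, the 5 genes nearest in profile to ANPEP and to the members' mean, and other genes chosen after their values were seen. No 2 libraries of one kind agreed within sampling noise: chi-square per degree of freedom was 2.67 to 12.1. Alternatives were DESeq2 1.42.0 size factors and its Wald test, library totals, no filter, a filter of 1 CPM in 3 libraries, the replicate number as a block, and each library left out in turn. All 6 samples were used. Some genes of these lists were left out and are not reported here.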

Additional observations from a re-analysis of the deposited data

How the results depend on the processing

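Library totals in place of TMM scaling gave 5727 genes higher and 1822 lower, against 3302 and 3313, and moved the log2 fold change of TINAG to 1.24. Those of the other tested members rose by a like amount, to 4.02 for ANPEP, 4.91 for GDPD2, 0.70 for DPP4 and 0.34 for ENPEP. TMM factors, which library totals leave out, were 1.05 to 1.07 for AA2P libraries and 0.94 for control libraries. DPP8 then stood at 0.0035 on the log2 scale, against -0.17, so its direction rests on the scaling. Why the TMM factors differed between the groups was not tested. The members' median log2 fold change, 1.07, lay between 1.01 and 1.12 with each library left out in turn and between 1.06 and 1.24 under the other alternatives. The number of members called higher was 4, or 5 without AA2P replicate 3 and without control replicate 3, where ACE was counted too. Nothing is read from these counts, because the members were picked with these differences in view. No pairing of the libraries by the numbers 1 to 3 in the labels was visible. Deviations of same-numbered libraries correlated at -0.039, -0.017 and -0.055, and those of other pairs at -0.065 to 0.105. With 3 libraries of each kind this cannot show whether same-numbered libraries shared a culture or pig. With the replicate number as a block 3094 genes were called higher and 3110 lower. Of 418 values for the named pathway genes under alternatives, 407 kept direction and call, 10 kept the direction and missed the threshold, and 1 reversed. The low counts of ACE, ENPEP, PHEX and ALPL limit what could be seen there.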

Other observations

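Neighbours of the members in the RefSeq gene order of pig assembly Sscrofa11.1 were picked by position, a choice made after the data were seen. ANPEP lies between MESP2, a transcription factor of somite formation, and AP3S2, an adaptor subunit. MESP2 was at 2.98 ± 0.718 CPM with AA2P and 0.282 ± 0.204 CPM in controls (SD, n = 3 each), and AP3S2 at 9.82 ± 0.834 CPM and 7.20 ± 0.731 CPM in the same order. Both were called higher by edgeR, at adjusted p-values (Benjamini-Hochberg) of 1.3e-06 and 0.00421. ELOVL6, a fatty acid elongase gene beside ENPEP, was at 222 ± 12.3 CPM with AA2P and 98.7 ± 0.633 CPM in controls, with an adjusted p of 4.1e-11 by edgeR. CYB561, beside ACE, was at 41.0 ± 2.33 CPM with AA2P and 29.3 ± 1.44 CPM in controls. GDPD2 lies between KIF4A, which had a log2 fold change of 0.43, and DLG3, which had 0.12 and was not called. FAM83B, beside TINAG, had -0.15 and was not called, and MLIP on its other side was under the level of 3 counts. In that annotation 1 further gene overlaps each of DPP4, ENPEP, ACE and GDPD2, and none overlaps ANPEP or TINAG. Reads shared with these genes were not tested.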
